A study of Danio rerio with 17 samples.

Results

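The genes described here encode the protein parts of circulating lipoproteins and the transfer protein that loads them with lipid. They are apoa1a, apoa1b, apoa2, apobb.1, apoea, apoeb, apoc1, apoc2, apom and mtp, chosen by symbol. All 10 were among the 15316 genes of the count files, mtp under its name mttp, and all 10 were among the 13539 genes that passed the filter on low counts. The samples were 17 pools, each of 10 whole embryos of zebrafish line AB, frozen at 72 hours post fertilization (hpf). The 5 control pools carried no stated treatment, the 6 glucose pools were treated with 3% glucose at 24 hpf, and the 6 FFA pools received a yolk injection of canola oil at the same age, carrying a lipid tagged with the BODIPY dye (1 mg/ml). The sources do not say that controls had a mock injection, so the injection and its lipid cannot be told apart. Without an osmotic control, the sugar and its osmotic strength cannot be told apart either. Since separate clutches are not stated, p-values set group differences against the spread between these pools, and that spread may be technical alone.

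Lipoproteins are particles of fat and cholesterol held in solution by apolipoproteins. Apolipoprotein B is the scaffold of the large triglyceride-carrying particles, and microsomal triglyceride transfer protein (mttp) loads it with lipid as it enters the endoplasmic reticulum. Apolipoproteins A-I and A-II belong to high-density lipoprotein, while the E and C proteins move between particles and steer their uptake and hydrolysis. In the zebrafish embryo the yolk syncytial layer, a tissue at the surface of the yolk, packs yolk lipid into such particles, and liver and intestine take over as the yolk is used up.

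Groups follow the sample titles. For 11 of the 17 libraries the treatment tag disagrees with the title: 5 libraries titled glucose are tagged FFA, 5 titled FFA are tagged glucose, and 1 titled glucose is tagged control. If the tags held and the titles did not, most glucose values below would be FFA values and most FFA values glucose values. Counts in genes ranged from 10208640 to 16745675 per library, and the smallest count of any of the 10 genes in any library was 1007 (mttp), so counting error was small beside the spread between pools.

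The levels of the 10 genes varied together from pool to pool. Summed, they took 19102 ± 3425 counts per 1000000 counts in genes (CPM; mean ± SD) over the 5 control pools, 19535 ± 3154 over the 6 glucose pools and 19127 ± 1284 over the 6 FFA pools. The control pools, in the order of replicates 1, 2, 3, 4 and 6, summed to 15861, 16323, 21870.4, 23534 and 17922 CPM. Glucose pools ran from 15097 to 22064 with a median of 21155, and FFA pools from 17697 to 21140.1 with a median of 19174. The lowest control and glucose pools were those with the largest share of counts outside genes: 36.6% in control replicate 1, 35.6% in control replicate 2 and 36.2% in glucose replicate 4, against 29.9% in control replicate 4, which was highest for the sum. FFA replicates 4 and 5, at 35.8% and 35.3%, were likewise lowest in their group. Control replicates 1 and 2 and glucose replicate 4 are called the 3 libraries below. The fit was repeated with the share outside genes as a covariate and without the 3 libraries. That removal was one-sided: FFA replicates 4 and 5 stayed in, though replicate 4 had a larger share outside genes than control replicate 2. It takes pools low in these genes from control and glucose alone, which raises those groups beside FFA. With 2 of 5 control pools and 1 of 6 glucose pools gone, control also rises beside glucose. All 10 log2 fold changes in glucose against control were lower after the removal, such as that of apoc1 (0.26 to 0.15). How far this accounts for calls made without the 3 libraries was not tested.

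**Figure D1:**
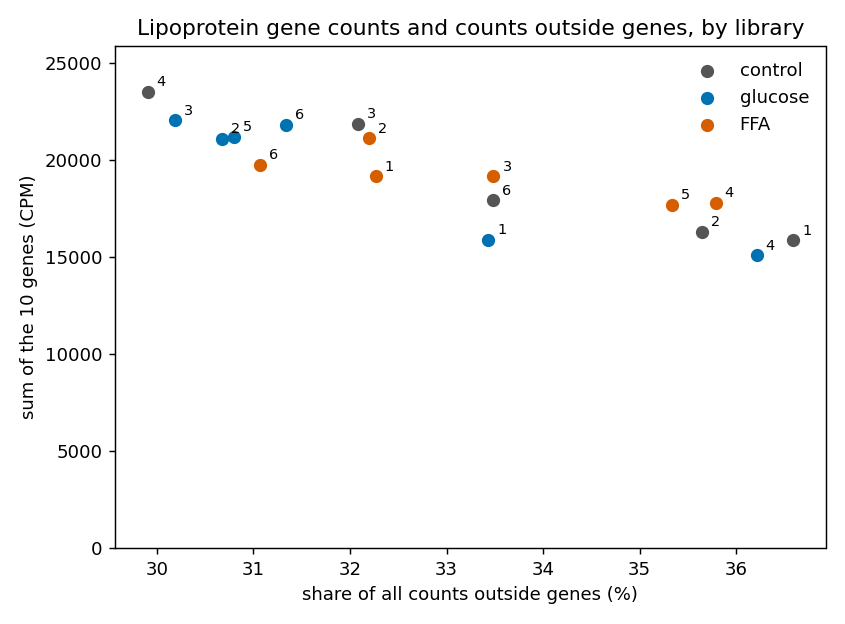
Summed level of the 10 lipoprotein genes (vertical axis, CPM, from 0) against the share of all counts outside genes (horizontal axis, percent) in each of the 17 libraries, with replicate numbers beside the points. The sums lie between 15097 and 23534 CPM, and control replicates 1 and 2 and glucose replicate 4, with 35.6% to 36.6% of counts outside genes, lie lowest in their groups.

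After centring within groups, each of the 9 apolipoprotein genes had a Pearson r of 0.848 (apom) to 0.994 (apoc2) with the mean of the other genes over the 17 libraries, and mttp had 0.644. These values describe the libraries, which share depth and the share outside genes. By the same measure the genes outside the lists most like the mean of the 10 were rpl36 (0.979) and rps28 (0.977), which encode ribosomal proteins, followed by grhprb (0.975), icn2 (0.974) and zgc:171772 (0.973).

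Counted together, 1 of the 10 genes was called in glucose against control (apoeb, lower), where 10.9% of all genes were called, 5.87% higher and 5.02% lower (795 and 679 genes, but 652 and 856 with library size alone as scaling). For FFA against control, it was 0 of 10, where edgeR called 1.82% of all genes (1.1% higher, 0.716% lower), and 0 with DESeq2, which called 2.81%. At an unadjusted p under 0.05 there was 1 of the 10 (apom), beside 1379 of the 13539 genes tested. For FFA against glucose, 2 of the 10 were called (apoeb and mttp, higher), where 17% of all genes were called (7.98% higher, 9% lower). These shares of the 10 are near those of all genes. The median log2 fold changes of the 10 were -0.01, -0.01 and -0.07, beside -0.003, -0.01 and 0.001 for all genes. With the covariate 5 of 10 were lower in glucose than in control (apoa1b, apoc2, apoeb, apom and mttp), where 1275 of 13539 genes were lower and 18.6% were called in either direction. In the comparison of FFA with glucose, 3 were then higher (apoa1b, apoeb and mttp), where 1976 of 13539 genes were higher and 29.4% were called in either direction. In FFA against control 0 of 10 were then called, where 4.79% of all genes were called. Grouped by the tags, 0 of the 10 genes were called in each comparison. Few genes of any kind were called then: 106 in glucose against control, 1 in FFA against control and 511 in FFA against glucose.

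**Figure D2:**
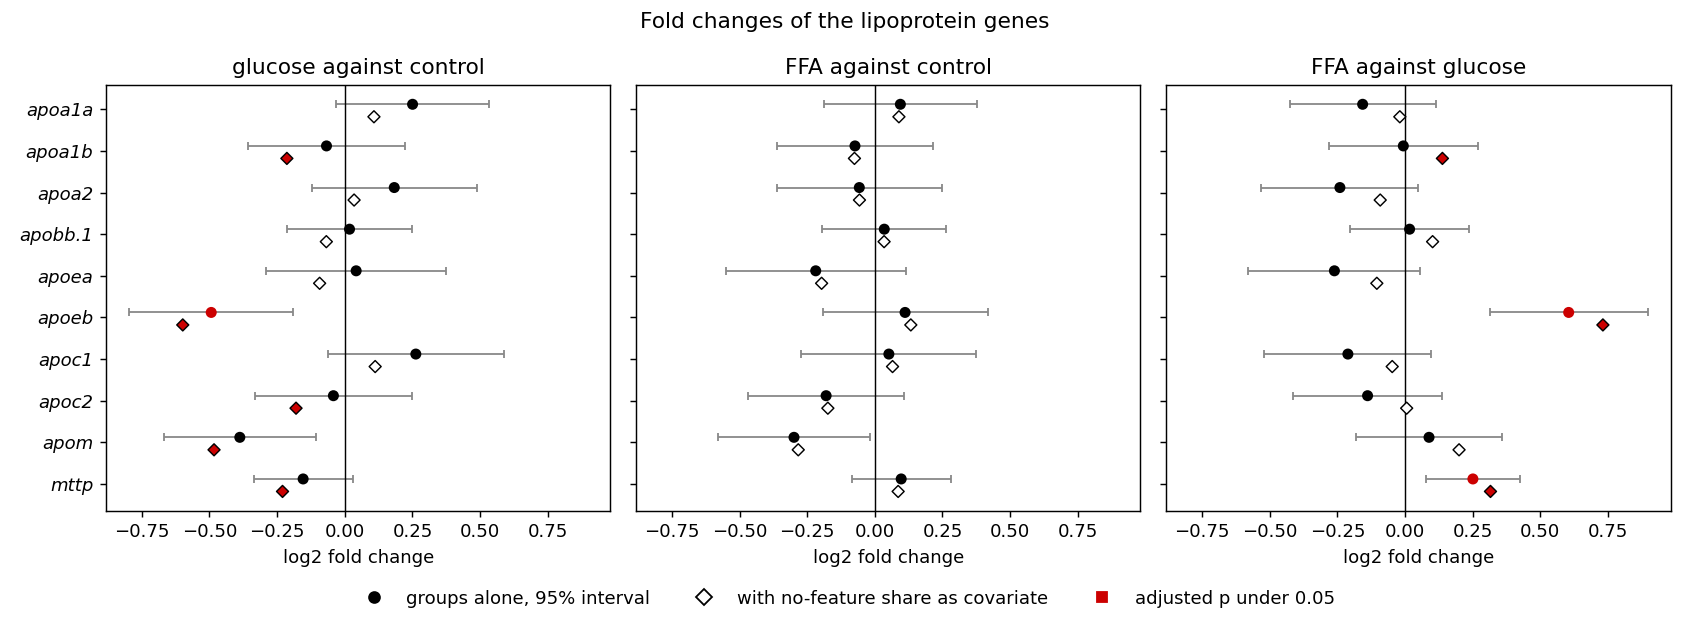
Log2 fold change of each gene (horizontal axis) in the 3 comparisons; circles with bars are the values and 95% intervals of the fit by group, diamonds the values with the share outside genes as a covariate, and red marks an adjusted p under 0.05. Among circles only apoeb (in 2 comparisons) and mttp (in FFA against glucose) are red.

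The scaffold and the loading protein come first. The apolipoprotein B gene apobb.1 stood at 6809, 6849, 8774, 9228 and 7092 CPM in control, from 6215 to 8684 in glucose (median 8346) and from 7422 to 9032 in FFA (median 7799). The 3 groups overlapped throughout. Its log2 fold change was 0.02 ± 0.107 in glucose against control (SE, 95% interval -0.21 to 0.25) and 0.03 ± 0.107 in FFA against control (-0.20 to 0.26), with adjusted p-values of 0.936 and 0.981.

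For mttp, control pools gave 103, 112, 122, 119.5 and 127 CPM, glucose pools 88.8 to 124 (median 103) and FFA pools 108 to 142 (median 125). FFA pools lay mostly above glucose pools, with overlap, and control pools lay between. The gene was 0.25 ± 0.0814 higher in FFA than in glucose on the log2 scale (adjusted p = 0.0427), which was a call, while glucose against control (-0.15 ± 0.0853, adjusted p = 0.277) and FFA against control (0.10 ± 0.0853, adjusted p = 0.884) were not calls. The call ended without glucose replicate 1, 4, 5 or 6 or FFA replicate 1, 2, 3, 4 or 6 (adjusted p from 0.0546 to 0.0948). With the share outside genes as a covariate it was 0.32 (adjusted p = 0.000408), and mttp was then also lower in glucose than in control (-0.23, adjusted p = 0.0103).

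**Figure D3:**
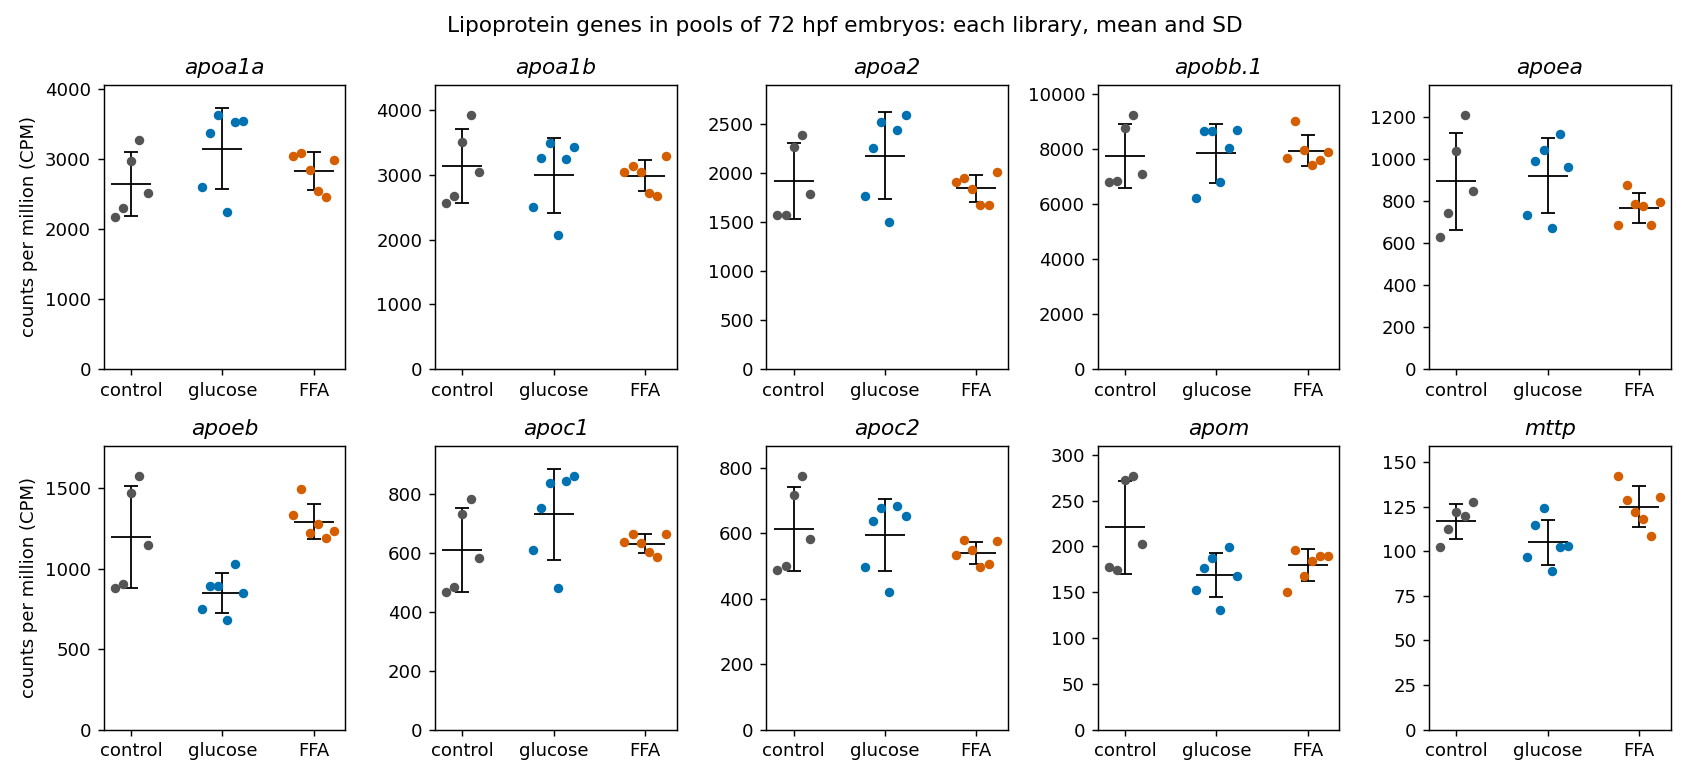
Level of each gene (CPM, axis from 0) in every library of the control (n = 5), glucose (n = 6) and FFA (n = 6) groups, replicates in order from left to right; horizontal bars are means and whiskers SD. The apoeb points of the glucose group (683 to 1030.5 CPM) all lie below those of the FFA group (1190.1 to 1493 CPM), while the apobb.1 points of the groups overlap.

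Of the high-density lipoprotein genes apoa1a, apoa1b and apoa2, none was called in any comparison of the fit by group, and apoa1b became a call with the covariate. The apolipoprotein A-I gene apoa1a stood at 2176, 2304, 2966, 3267 and 2514 CPM in control, 2239.7 to 3621 in glucose (median 3445) and 2457 to 3086 in FFA (median 2911). Its copy apoa1b stood at 2559, 2679.7, 3509, 3921 and 3041 CPM in control, 2066 to 3496 in glucose (median 3249.96) and 2676 to 3288 in FFA (median 3047). Control replicates 1 and 2 were low for both, as was glucose replicate 4. In glucose against control the log2 fold changes were 0.25 ± 0.132 for apoa1a (adjusted p = 0.253) and -0.07 ± 0.135 for apoa1b (adjusted p = 0.789). In the comparison of FFA with control, they were 0.09 ± 0.132 (adjusted p = 0.951) and -0.07 ± 0.135 (adjusted p = 0.969). With the share outside genes as a covariate, apoa1b was lower in glucose than in control (-0.21, adjusted p = 0.00498). Between FFA and glucose its value turned from -0.01 ± 0.129 (adjusted p = 0.984) to a call of 0.14, higher in FFA (adjusted p = 0.0299).

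The ratio of the A-I copies within a library was much steadier than either level, and it separated the 3 groups. Reads of apoa1a per read of apoa1b were 0.850, 0.860, 0.845, 0.833 and 0.827 in the control pools. They ran from 1.03 to 1.09 in glucose (median 1.04) and from 0.906 to 0.999 in FFA (median 0.933), so no library of a group overlapped another group. Mean ± SD was 0.843 ± 0.0132 over 5 control pools, 1.05 ± 0.0256 over 6 glucose pools and 0.945 ± 0.0376 over 6 FFA pools. The log2 ratio was 0.32 higher in glucose than in control (exact permutation test, two-sided, p = 0.00433) and 0.16 higher in FFA than in control (exact p = 0.00433), the smallest p that 5 against 6 libraries allow. FFA and glucose differed by -0.15 (exact p = 0.00216, the smallest for 6 against 6). Over the 6 ratio tests run, on the A-I and the E copies, each adjusted p was 0.00433. The ratios were chosen after the values were seen, the treatment of reads that match both copies is not given, and a ratio shows unequal change without saying which copy moved. Ratios of other gene pairs were not computed, so how often a ratio separates these groups is not known.

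**Figure D4:**
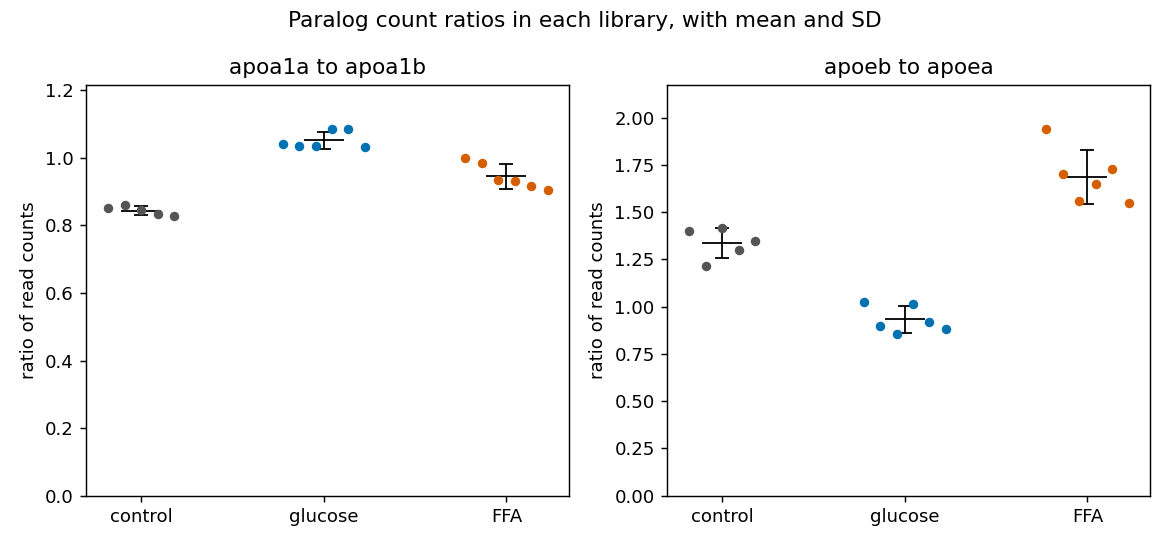
Ratio of read counts of apoa1a to apoa1b (left) and of apoeb to apoea (right) in every library, by group, with means and SD; vertical axes start at 0. In each panel the 3 groups do not overlap: the glucose group is highest on the left (1.03 to 1.09) and lowest on the right (0.855 to 1.03).

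The apolipoprotein A-II gene apoa2 stood at 1569, 1573, 2266, 2380.3 and 1785 CPM in control, 1499.7 to 2584 in glucose (median 2341) and 1671 to 2003 in FFA (median 1874). The groups overlapped, and the log2 fold changes were 0.18 ± 0.142 in glucose (adjusted p = 0.456) and -0.06 ± 0.142 in FFA (adjusted p = 0.975) against control. Between FFA and glucose it was -0.24 ± 0.135 (adjusted p = 0.245). Without control replicates 1 and 2 and glucose replicate 4 this last difference became a call (-0.32, adjusted p = 0.0237).

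The clearest difference among the 10 was in an apolipoprotein E gene. Apolipoprotein E is the ligand by which remnant particles are taken up through receptors of the LDL receptor family, and in zebrafish apoeb is also known as a marker of microglia. Control pools had 883, 904, 1473, 1575 and 1145 CPM of apoeb, glucose pools 683 to 1030.5 (median 869) and FFA pools 1190.1 to 1493 (median 1256). Glucose pools all lay below FFA pools and overlapped control replicates 1 and 2. The gene fell from 1196 ± 319 CPM in control to 849 ± 122 in glucose, by 0.49 ± 0.142 on the log2 scale (adjusted p = 0.0328, 95% interval -0.80 to -0.19). It was 0.61 ± 0.136 higher in FFA (1292 ± 110.2 CPM) than in glucose (adjusted p = 0.00575). FFA and control differed by 0.11 ± 0.142 (adjusted p = 0.945, interval -0.19 to 0.42).

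The higher level in FFA than in glucose was called without each of the 12 libraries in turn (0.55 to 0.67, adjusted p up to 0.0153). The fall against control was smaller beside its spread: the call ended without control replicate 3, 4 or 6 or glucose replicate 1, 2 or 6 (adjusted p from 0.0516 to 0.0907) and in the 2-group fit, which leaves out the third group (adjusted p = 0.0832). With the share outside genes as a covariate it was -0.60 (adjusted p = 7.41e-05), and without control replicates 1 and 2 and glucose replicate 4 it was -0.67 (adjusted p = 0.000997). This last value is no support for the fall, since the removal took out the 2 control pools that overlapped glucose. Between FFA and control the sign turned without those 3 libraries (-0.11, adjusted p = 0.571).

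Its copy apoea did not pass the test. Control pools had 631, 743, 1039, 1209.7 and 849.5 CPM, glucose pools 673 to 1122 (median 977) and FFA pools 687 to 879 (median 781), with overlap between all groups. The log2 fold change was 0.04 ± 0.156 in glucose (adjusted p = 0.892) and -0.22 ± 0.155 in FFA (adjusted p = 0.798) against control, and -0.26 ± 0.148 in FFA against glucose (adjusted p = 0.250). Reads of apoeb per read of apoea were 1.399, 1.22, 1.42, 1.302 and 1.35 in the control pools, 0.855 to 1.03 in glucose (median 0.909) and 1.55 to 1.94 in FFA (median 1.67), again with no overlap. Means were 1.34 ± 0.0810 (SD, n = 5), 0.932 ± 0.0712 (n = 6) and 1.69 ± 0.144 (n = 6). The log2 ratio was -0.52 in glucose against control (exact p = 0.00433), 0.33 in FFA against control (exact p = 0.00433) and 0.86 in FFA against glucose (exact p = 0.00216).

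Markers of several cell types moved beside apoeb. In a bulk sample, fewer cells of a type and less RNA per cell cannot be told apart. Of 15 macrophage and microglia markers, 8 were higher and 0 lower in FFA than in glucose, where 7.98% of all genes were higher. Their sum ran from 140.4 to 189 CPM in glucose and from 198 to 252 in FFA, without overlap, and from 177 to 225 in control. Its largest parts were slc7a7 (means of 53.8 CPM in control, 31.4 in glucose and 51.7 in FFA) and csf1ra (52.1, 43.9 and 56.1 CPM). Whether the counts of both genes in whole embryos came from macrophages or microglia was not tested, so the sum is no measure of those cells. In glucose against control 1 of the 15 was lower and in FFA against control 1 was higher. All 15 had counts, and their part in the apoeb difference was not tested. The sum of 12 skin markers overlapped between groups (17333 to 26439 CPM in control, 17539.9 to 29042 in glucose, 20093 to 25154 in FFA), with 0 of 12 called against control and 2 lower in FFA than in glucose. Of 13 photoreceptor markers 0 were called in each comparison, but they varied widely within groups. The sum of 14 such genes ran from 1295 to 6981 CPM in control, 1098 to 6113 in glucose and 1781 to 4604 in FFA. The log2 fold change was above 0 for 0 of the 13 in glucose against control (median -0.45). It was above 0 for 6 in FFA against control (median -0.02) and 11 in FFA against glucose (median 0.26). Intestine markers were called more often in FFA against glucose than macrophage markers (83.3% beside 53.3%), with 9 higher and 1 lower of 12. Of 20 liver markers 2 were higher and 2 lower there, and of 7 yolk genes 1 was higher and 2 lower.

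The C proteins act on lipoprotein lipase, the enzyme that empties triglyceride from particles: apolipoprotein C-II activates it, and apolipoprotein C-I is known in mammals to slow particle clearance. Neither gene was called in any comparison of the fit by group. For apoc1, control pools had 467, 485, 733, 783 and 584 CPM, glucose pools 483 to 862 (median 796) and FFA pools 588 to 666 (median 636). For apoc2 these were 488, 499.6, 716, 774 and 581 CPM in control, 420.3 to 681 in glucose (median 645) and 497 to 580.1 in FFA (median 541). Both overlapped between groups. In glucose against control, apoc1 gave 0.26 ± 0.151 (adjusted p = 0.299) and apoc2 -0.04 ± 0.135 (adjusted p = 0.873). In FFA against control they gave 0.05 ± 0.151 (adjusted p = 0.981) and -0.18 ± 0.135 (adjusted p = 0.831). With the covariate, apoc2 became a call in glucose against control (-0.18, adjusted p = 0.0287). Without control replicates 1 and 2 and glucose replicate 4, apoc1 was lower in FFA than in glucose (-0.30, adjusted p = 0.0206), as was apoea (-0.33, adjusted p = 0.0319).

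Apolipoprotein M carries sphingosine 1-phosphate on high-density lipoprotein. Control pools had 177, 175, 273, 277 and 203 CPM of apom, glucose pools 131 to 199 (median 172) and FFA pools 150.04 to 196 (median 187). Control replicates 3, 4 and 6 lay above every treated pool, replicate 6 by little, and control replicates 1 and 2 lay within the treated range. The log2 fold change was -0.39 ± 0.131 in glucose (adjusted p = 0.0676) and -0.30 ± 0.131 in FFA (adjusted p = 0.421), neither of them a call. In glucose it became a call with library size alone as scaling (-0.42, adjusted p = 0.0254), with DESeq2 (adjusted p = 0.0283), with the covariate (-0.48, adjusted p = 0.00141), without control replicate 1 or 2 (adjusted p = 0.0421 and 0.0379) and without the 3 libraries (-0.51, adjusted p = 0.00788). In FFA the sole alternative under which it became a call was removal of the 3 libraries (-0.48, adjusted p = 0.0210). Control replicates 1 and 2 were the lowest control pools for apom, so taking out either or both raises the control mean by itself.

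Levels were also set against the mean of the 10 in the same library, a scale on which genes must differ in direction by construction. The pooled SD within groups of the log2 level fell from 0.233 to 0.0552 for apoa1a and from 0.242 to 0.0321 for apoc2, but it rose from 0.146 to 0.160 for mttp. On this scale apoc1 (0.30), apoa1a (0.28) and apoa2 (0.21) were higher in glucose than in control, and apoeb (-0.43) and apom (-0.34) were lower, each with no overlap between libraries. That is 5 of 10, where 4.69% of all genes did not overlap on the same scale. For FFA against control, 1 of 10 did not overlap, apoc2 (-0.13), where it was 2.22% of all genes. In FFA against glucose apoeb was higher (0.60) and apoea (-0.25), apoa2 (-0.23), apoc1 (-0.19) and apoc2 (-0.13) were lower without overlap, 5 of 10, where it was 5.23%. The shares of all genes are no like-for-like background, since genes that do not vary with the 10 gain spread from the subtraction. Each gene is part of the mean, so that a fall of some lifts the others. Of the 5 genes named for glucose against control, only apoeb was called in the fit by group. On CPM alone the groups did not overlap for 0 of 10 genes in glucose and 0 of 10 in FFA against control, and for 1 of 10 (apoeb) in FFA against glucose (6.9%, 2.3% and 8.69% of all genes).

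**Figure D5:**
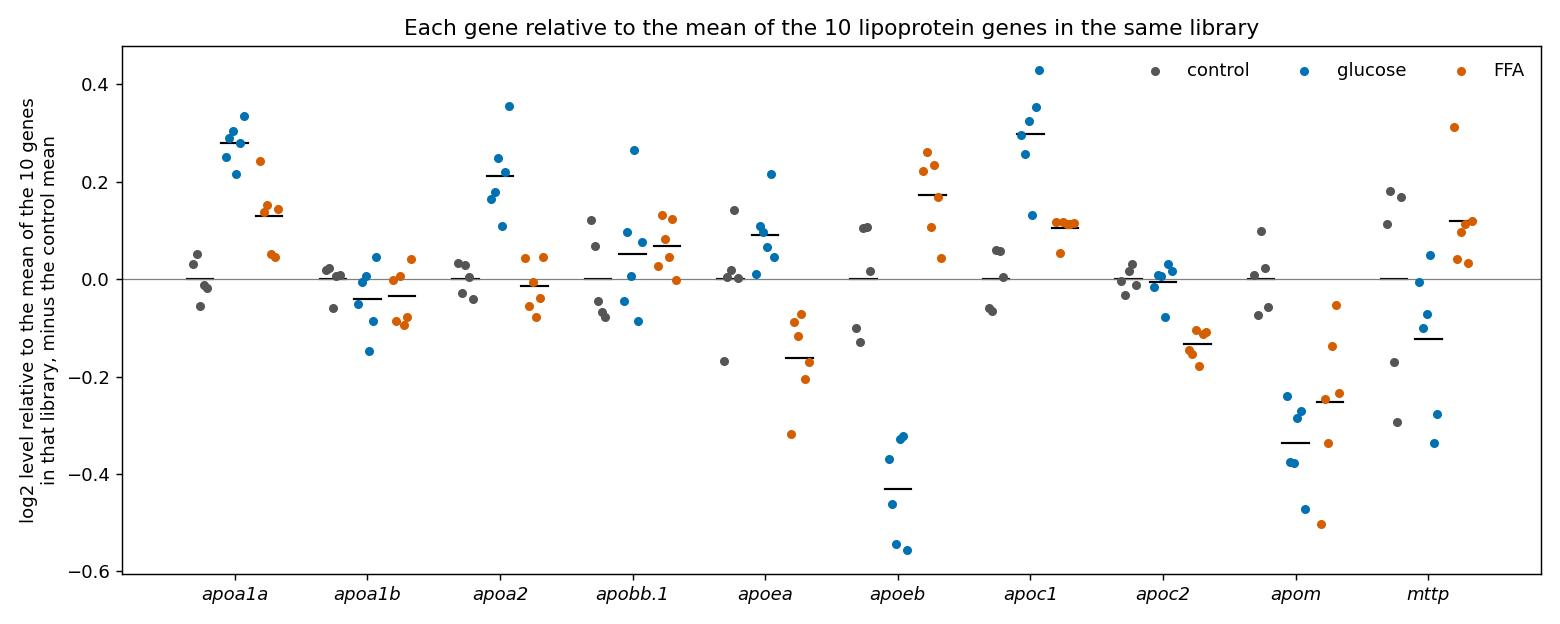
Log2 level of each gene relative to the mean of the 10 in the same library, minus the control mean (vertical axis), for every library by group; black bars are group means. In the glucose group apoc1, apoa1a and apoa2 lie above and apoeb and apom below all control points, with means of 0.30, 0.28, 0.21, -0.43 and -0.34.

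Genes that are neighbours on the chromosome had values of either sign. In the order of RefSeq's GRCz12tu annotation, which is not the build named by the submitters (danRer7) and is used for names and order alone, apoeb is followed by apoc1, apoc4, apoa2 and apoc2, and apoa4b.2 stands just before it. Around it, apoc4, a C protein gene at 0.409 to 2.97 CPM, fell in glucose by 1.26 ± 0.301 on the log2 scale (adjusted p = 0.0128), on counts of 15 to 38 per control pool and 4 to 12 per glucose pool. The apolipoprotein A-IV gene apoa4b.2, a component of intestinal particles, was 0.82 ± 0.144 higher in FFA (401 ± 47.9 CPM, n = 6) than in glucose (228 ± 42.4 CPM, n = 6; adjusted p = 0.00101), without overlap. Its value was -0.32 ± 0.150 in glucose (adjusted p = 0.192) and 0.50 ± 0.151 in FFA (adjusted p = 0.136) against control. In the other cluster apoa4a lies beside apoea, and apoa4a rose in glucose by 0.92 ± 0.245 (10.1 ± 3.48 to 19.02 ± 6.57 CPM, adjusted p = 0.0234). That call ended without control replicate 1, 3 or 6 or glucose replicate 3 or 5 (adjusted p up to 0.0635) and in the 2-group fit (adjusted p = 0.0718).

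Of all genes, 10.9% were called in glucose against control, 1.82% in FFA against control and 17% in FFA against glucose. Of 9 other apolipoprotein genes tested, 1 was higher and 1 lower in glucose against control (median -0.06), 0 were called in FFA against control (median 0.09), and 2 were higher in FFA than in glucose (median 0.09). The second of these was clu, which encodes the extracellular chaperone clusterin, or apolipoprotein J (0.23 ± 0.0641, adjusted p = 0.0220). The genes apoa4b.1, apoda.1, apoda.2, apodb and apol1 were called in none of the 3 comparisons. This list and those below were chosen with earlier results of these data known, so no excess over all genes is read from their counts.

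Particle assembly needs triglyceride and cholesteryl ester synthesis and transport vesicles of the COPII type. Of 20 such genes tested, 2 were higher and 2 lower in glucose (20%, beside 10.9% of all genes; median 0.12). The shares were 5% beside 1.82% of all genes in FFA against control, and 25% beside 17% in FFA against glucose. The monoacylglycerol acyltransferase gene mogat2, part of triglyceride synthesis in the gut, fell from 26.7 ± 2.96 CPM in control (n = 5) to 17.9 ± 3.29 in glucose (n = 6), by 0.58 ± 0.117 (adjusted p = 0.00406), without overlap. The diacylglycerol acyltransferase gene dgat1a fell by 0.32 ± 0.0921 (adjusted p = 0.0349) and the COPII coat gene sec23b rose by 0.50 ± 0.143 (adjusted p = 0.0336), and each of these calls ended without 1 of 7 libraries: control replicates 1, 2, 3 and 6 for both, glucose replicates 2, 5 and 6 for dgat1a and glucose replicates 1, 2 and 3 for sec23b. Both also ended when the other group was left out of the fit (adjusted p = 0.0682 and 0.0708), and that of dgat1a without the 3 libraries (0.0940). In the comparison of FFA with control, 1 of the 20 was called, the cholesterol acyltransferase gene soat1 (0.69 ± 0.169, adjusted p = 0.0466), a call that ended without any 1 of 9 libraries (control replicates 1, 2, 3 and 6 and FFA replicates 1, 2, 4, 5 and 6), with RLE scaling (adjusted p = 0.0503), in the 2-group fit (0.147) and without the 3 libraries (0.0939). For FFA against glucose, 2 were higher and 3 lower, among them mogat2 (0.45 ± 0.112, adjusted p = 0.0107), the cargo receptor gene surf4l (-0.29 ± 0.0732, adjusted p = 0.0119) and klhl12 (0.22 ± 0.0591, adjusted p = 0.0174), which encodes a ubiquitin ligase adaptor for large COPII carriers.

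Enzymes and transfer proteins that remodel particles in plasma were lower in glucose in 2 of 14 cases and higher in 0 (14.3%, beside 10.9% of all genes; median -0.08). These were lcat, which esterifies cholesterol on high-density lipoprotein (35.8 ± 6.78 CPM in control, n = 5, and 26.2 ± 4.17 in glucose, n = 6; -0.45 ± 0.128, adjusted p = 0.0299), and the phospholipid transfer protein gene pltp (-0.34 ± 0.0894, adjusted p = 0.0225). The lcat call ended without control replicate 3 or 4 or glucose replicate 1 (adjusted p up to 0.0746) and that of pltp without glucose replicate 2 (0.0508), and both ended in the 2-group fit (0.0663 and 0.0628). In FFA against control 0 of 14 were called (median 0.09), 2 of them with DESeq2. In the comparison of FFA with glucose, 4 were higher and 2 lower of 14 (42.9%, beside 17% of all genes; median 0.15), with lcat at 0.66 ± 0.122 (adjusted p = 0.00147), pltp at 0.41 ± 0.0854 (adjusted p = 0.00334) and the lipase maturation factor gene lmf2b at -0.28 ± 0.0596 (adjusted p = 0.00407). The lipoprotein lipase gene lpl gave -0.05 ± 0.0853 in glucose against control (adjusted p = 0.739), 0.15 ± 0.0853 in FFA against control (adjusted p = 0.615) and 0.21 ± 0.0813 in FFA against glucose (adjusted p = 0.0914). This last value became a call with library size alone (adjusted p = 0.0186), with the covariate (0.000369) and in the 2-group fit (0.0426).

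Receptors and sterol exporters were lower in glucose in 4 of 16 cases and higher in 0 (25%, beside 10.9% of all genes; median -0.19). The shares were 6.25% beside 1.82% of all genes in FFA against control, and 25% beside 17% in FFA against glucose. The fatty acid translocase gene cd36 fell from 55.2 ± 5.74 CPM in control (n = 5) to 35.9 ± 3.77 in glucose (n = 6), by 0.62 ± 0.0969 (adjusted p = 0.000553), and the LDL receptor gene ldlra from 68.8 ± 4.79 to 49.4 ± 8.09 CPM, by 0.48 ± 0.104 (adjusted p = 0.00693), both without overlap. The high-density lipoprotein receptor gene scarb1 fell by 0.39 ± 0.101 (adjusted p = 0.0189). For FFA against control, 1 of 16 was called, cd36 (-0.46 ± 0.0967, adjusted p = 0.0179; the call ended without control replicate 6, 0.0653), with ldlra at 0.03 ± 0.103 (adjusted p = 0.981) and scarb1 at -0.07 ± 0.101 (adjusted p = 0.954). In FFA against glucose 3 were higher and 1 lower: ldlra by 0.51 ± 0.0992 (adjusted p = 0.00213), the sterol exporter gene abcg5 by 0.49 ± 0.140 (adjusted p = 0.0219) and scarb1 by 0.33 ± 0.0970 (adjusted p = 0.0284) were the named rises. The abcg5 call ended without glucose replicate 5 or FFA replicate 1 or 4 (adjusted p up to 0.0573), and that of scarb1 without glucose replicate 3, 4 or 6 or FFA replicate 1, 3 or 4 (adjusted p up to 0.0685). The very low-density lipoprotein receptor gene vldlr varied widely (78.4 ± 28.3 CPM in control, 68.4 ± 19.7 in glucose and 70.1 ± 14.9 in FFA) and was called in no comparison (adjusted p = 0.630, 0.951 and 0.937).

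Of 26 regulator genes, 2 were higher and 0 lower in glucose (7.69%, beside 10.9% of all genes; median 0.04). These were the hepatocyte and gut factor gene hnf1ba (0.41 ± 0.0917, adjusted p = 0.00873) and the liver and myeloid factor gene cebpa (0.31 ± 0.0792, adjusted p = 0.0177). The cebpa call ended in the 2-group fit (adjusted p = 0.0539). In the comparison of FFA with control, 2 were higher and 0 lower (7.69%, beside 1.82% of all genes; median 0.03), cebpb, a factor of inflammation and fat metabolism (66.0 ± 6.86 CPM, n = 5, to 209 ± 59.7, n = 6; 1.66 ± 0.223, adjusted p = 0.000521), and cebpa (0.34 ± 0.0792, adjusted p = 0.0335). That cebpa call ended without any 1 of 9 libraries (control replicates 1, 2, 3 and 6 and FFA replicates 2 to 6). For FFA against glucose, cebpb was higher (1.22 ± 0.206, adjusted p = 0.000716) and foxa2, a gut and liver pioneer factor gene, lower (-0.33 ± 0.109, adjusted p = 0.0448; the call ended with library size alone, 0.0930, without the 3 libraries, 0.0591, and without any 1 of 10 of the 12 libraries, glucose replicate 2 and FFA replicate 6 being the exceptions). The gene creb3l3a, whose product drives apolipoprotein genes in liver and gut, stood at 15.9 to 18.4 CPM in control and 20.1 to 24.0 in FFA without overlap, at 0.38 ± 0.101 (adjusted p = 0.0764). This difference became a call with DESeq2 (adjusted p = 0.0271), library size alone (0.0463), the covariate (0.0120) and the 2-group fit (0.0234). In glucose pools creb3l3a stood at 16.3 to 25.1 CPM, with 0.27 ± 0.102 against control (adjusted p = 0.108). That became a call without glucose replicate 4 (0.32, adjusted p = 0.0317). FFA and glucose pools differed by 0.11 ± 0.0959 (adjusted p = 0.460, interval -0.09 to 0.32). With creb3l3a called in no comparison of the fit by group, whether its higher level was particular to FFA cannot be said. The nuclear receptor gene hnf4a, which is needed for transcription of several apolipoprotein genes in mammals, gave 0.02 ± 0.0772 in glucose (adjusted p = 0.899) and 0.18 ± 0.0771 in FFA (adjusted p = 0.417) against control. Between FFA and glucose it gave 0.16 ± 0.0735 (adjusted p = 0.154), which became a call with the covariate (0.19, adjusted p = 0.0446).

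Markers of each tissue that makes lipoproteins had counts, though 12 of the 14 intestine markers listed were in the count files. For the counts that follow, 5.87% of all genes were higher and 5.02% lower in glucose, and 1.82% were called in FFA against control. The summed level of 20 liver markers overlapped between groups (4967 to 7131 CPM in control, 4615 to 7646 in glucose, 5372 to 6354 in FFA), with 1 higher and 4 lower in glucose and 0 called in FFA against control. The sum of 12 intestine markers was 1203 to 1410.1 CPM in control and 809 to 1079 in glucose, without overlap, with 9 of 12 lower, and 981 to 1222 in FFA, with 4 of 12 lower. The sum of 13 yolk and yolk syncytial layer genes was 2127 to 3191 CPM in control, 2154 to 3077 in glucose and 2059 to 2653 in FFA. Most of it came from ctsla and rbp4 (means of 1404 and 967 CPM in control). Of the 7 that passed the filter, which include hnf1ba, also listed as a regulator, 3 were higher and 1 lower in glucose and 0 were called in FFA against control. The part of these tissues in the changes of apoeb, mogat2, cd36 and the other genes above was not tested.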

How the data were processed

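Per the labels' protocols, RNA came from TRIzol lysates cleaned on columns, mRNA libraries kept the strand, and the 17 libraries shared 1 pooled run of 75 bp paired reads. The deposited files hold whole-number read counts for 15316 named genes, made by the authors with no normalization in the values, plus 2 lines naming no gene. STAR, DESeq2 and the build danRer7 are named in the submitters' processing notes, without versions or roles. No source used here names the counter, the annotation or the rule for reads that match several genes. Near-identical copies are therefore uncertain as single genes. No sequence table or transcript length was used here, so levels are not compared between genes.

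The no-feature line held 29.9 to 36.6% of counts and the ambiguous line 0.213 to 0.252%, and both stayed out of library sizes and tests. No library was a copy of another in its group: chi-square per degree of freedom was 4.26 to 67.4 over the 40 within-group pairs. Pairs across groups were not compared in this way. The test was that of edgeR 4.0.16 under R 4.3.3, on the counts as deposited: filterByExpr (minimum count 10), TMM scaling, and the quasi-likelihood F-test in 1 fit with a mean per group (14 residual degrees of freedom). Called means an adjusted p (Benjamini-Hochberg over all 13539 genes) under 0.05. SE is the log2 fold change divided by the square root of F, and 95% intervals use it with 14 degrees of freedom. CPM are counts per 1000000 of the TMM-scaled library totals, and log2 CPM use a prior count of 0.5. Ratios of copies used an exact permutation test. The procedure was tested on simulated counts.

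The members and lists were chosen with earlier results of these data known. All 10 members are named. Of each other list up to 3 called genes with the smallest p per comparison are named, with lpl, ldlra, vldlr, scarb1, hnf4a and creb3l3a, and the 5 genes most like the members. The alternatives tried were DESeq2 1.42.0, RLE scaling, library size alone, no filter, the 2 groups alone, the replicate number as a block, the no-feature share as a covariate, removal of control replicates 1 and 2 and glucose replicate 4 (the 3 libraries), each library left out, and grouping by tag.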

Additional observations from a re-analysis of the deposited data

Results flagged for a closer look

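In 111 groups of 5 or 6 libraries (35 genes and both ratios of copies), 5 held a library far from the rest of its group, measured by the gap to the nearest other library over the group's range. Chance flags about 1 in 20 groups. The apolipoprotein B gene apobb.1 was at 9032 CPM in FFA replicate 2, where the next highest was 7964. In glucose replicate 4, vldlr was at 105 CPM above a next value of 70.6, and lcat at 18.2 CPM below a next value of 25.0. The level of cebpa was 92.2 CPM in FFA replicate 1, below 104.6 in the next, and that of klhl12 was 19.2 CPM in glucose replicate 6, below 21.8.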

How the results depend on the processing

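The ratios of apoa1a to apoa1b and of apoeb to apoea kept their direction and stayed past the threshold without each library in turn and without the 3 libraries. Since no groups overlapped, leaving libraries out could not have changed this, so it is no check of the ratios. The ratios also kept their direction with the covariate, which was run with no test. Genes called in glucose against control (1474) moved to 2522 with the covariate, 910 with the replicate number as a block and 106 by the tags. For FFA against control (246) they moved to 589 without the 3 libraries, 381 with DESeq2, 649 with the covariate, 118 with the block, 162 in the 2-group fit and 1 by the tags, and ran from 157 to 254 without 1 library. For FFA against glucose (2299) they moved to 3738 without the 3 libraries, 3978 with the covariate and 511 by the tags. The split in glucose against control was 795 higher and 679 lower, but 652 and 856 with library size alone, 715 and 738 with RLE and 466 and 723 without the 3 libraries. With FFA against glucose, it was 1081 and 1218, but 1339 and 1047 with library size alone.

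Of the 10 genes, those called in glucose against control were 1, with 2 under library size alone, DESeq2 and without the 3 libraries, 5 with the covariate, 0 with the block, the 2 groups alone and the tags, and 0 to 2 without 1 library. Of all genes, 10.9% were called in the main fit, 11.1% under library size alone, 12.8% with DESeq2 and 8.75% without the 3 libraries. The share was 18.6% with the covariate, 6.72% with the block and 7.51% in the 2 groups alone, and by the tags 106 genes in all were called. With FFA against control, 0 moved to 1 without the 3 libraries, where 4.34% of all genes were called. In FFA against glucose 2 moved to 5 without the 3 libraries, 3 with the covariate, 1 with the block and 0 by the tags, and ran from 1 to 2 without 1 library. The share of all genes moved as well, from 17% to 27.5% without the 3 libraries, 29.4% with the covariate and 12% with the block. By the tags 511 genes in all were called. The replicate numbers did not pair the libraries: same-numbered libraries correlated at -0.74 to 0.48 (control and glucose), -0.55 to 0.22 (control and FFA) and -0.13 to 0.49 (glucose and FFA). With the block apoeb in glucose (-0.50, adjusted p = 0.0921) and mttp in FFA against glucose (0.25, adjusted p = 0.0685) were not calls. In glucose against control the block also ended the calls of scarb1 (adjusted p = 0.0770), cebpa (0.0788), pltp (0.0655) and lcat (0.0974). Those of apoa4a (0.0979), sec23b (0.0715) and dgat1a (0.0502) ended as well. For FFA against control it ended those of cd36 (0.0884), cebpa (0.191) and soat1 (0.106). In FFA against glucose clu (0.0726), scarb1 (0.0793) and foxa2 (0.0598) were no longer calls.

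All log2 fold changes below were no calls in the main fit, and not all were near 0 there (vldlr in glucose against control, -0.20). Under the alternatives some changed sign. In glucose against control this was apobb.1 (-0.061 without the 3 libraries, -0.020 with library size alone, -0.068 with the covariate), apoea (-0.095 without the 3 libraries, -0.093 with the covariate), hnf4a (-0.019 with library size alone, -0.016 with the covariate) and vldlr (0.017 without the 3 libraries, 0.085 with the covariate). In FFA against control without the 3 libraries, it was apoa1a (-0.046), apobb.1 (-0.075), apoc1 (-0.15), apoeb (-0.11) and vldlr (0.22). For FFA against glucose, it was apoa1b (0.034 with library size alone, 0.14 with the covariate, a call, and 0.0060 with the block), apobb.1 (-0.014 without the 3 libraries), apoc2 (0.0065 with the covariate) and vldlr (-0.16 with the covariate). Without 1 library, ranges that spanned 0 were, in glucose against control, apoa1b -0.13 to 0.025, apobb.1 -0.026 to 0.088, apoc2 -0.11 to 0.057, apoea -0.060 to 0.18, hnf4a -0.024 to 0.066 and lpl -0.11 to 0.027. For FFA against control, they were apoa1b -0.14 to 0.019, apoa2 -0.12 to 0.033, apobb.1 -0.0085 to 0.11, apoc1 -0.031 to 0.16 and ldlra -0.0017 to 0.071, and in FFA against glucose apoa1b -0.093 to 0.043, apobb.1 -0.041 to 0.048 and vldlr -0.052 to 0.20.

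Counts of called genes in the other lists moved under several alternatives, as did the shares of all genes. With the covariate, 18.6% of all genes were called in glucose against control, 4.79% in FFA against control and 29.4% in FFA against glucose. With the block these shares were 6.72%, 0.872% and 12%. In glucose against control the covariate called 7 assembly genes, 4 other apolipoprotein genes and 7 plasma enzyme genes, and in FFA against control 2, 3 and 2. With FFA against glucose, it called 5 other apolipoprotein, 10 plasma enzyme and 8 regulator genes. In glucose against control plasma enzyme genes numbered 4 with DESeq2, 5 with library size alone, 0 with the block and 0 in the 2-group fit. There, assembly genes numbered 2 without the 3 libraries and 1 with the block or in the 2-group fit, as did other apolipoprotein and regulator genes (1), and receptor genes 2 with the block. With FFA against control, assembly genes numbered 0 to 2, plasma enzyme genes 1 with library size alone and 2 with DESeq2, receptor genes 0 and regulator genes 1 with the block. In FFA against glucose the block called 1 other apolipoprotein, 2 receptor and 1 regulator genes. Without 1 library the lists ran, in glucose against control, from 1 to 7 (assembly), 1 to 2 (other apolipoproteins) and 1 to 3 (plasma enzymes). In FFA against control they ran from 0 to 1 (assembly, plasma enzymes, receptors), 0 to 2 (other apolipoproteins) and 1 to 3 (regulators), and in FFA against glucose from 3 to 5 (assembly), 1 to 4 (receptors) and 1 to 2 (regulators). The cause of these moves was not tested. Levels per coding length were planned and not run, since no lengths were used.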
